A study of Mus musculus with 9 samples.

Results

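The enzymes and transporters of glycolysis, with the hypoxia response genes around the transcription factor HIF, were followed in naive CD4+ T cells, which are helper T cells that have not yet met antigen. The 34 genes were chosen by symbol from knowledge of the pathway, with earlier results of these data known. All 34 were found among 55487 gene identifiers. Of the 34, 32 had enough reads to be tested, and the hexokinase gene Hk2 and the growth factor gene Vegfa did not. The cells came from the lymph nodes of wild-type (WT) C57BL6/J mice, and no group carried any other allele. The 9 polyadenylated RNA libraries form 3 groups of 3. Fresh cells were processed directly after preparation, cultured cells were kept for 20 h in vitro with no treatment, and IL-1b-treated cells were kept for the same 20 h with the recombinant inflammatory cytokine interleukin-1 beta at 10 ng/mL. The labels name neither the age and sex of the mice nor the culture medium and oxygen level. They also do not say whether replicates came from separate mice or cultures, so the p-values measure the spread between these libraries, which may be technical.

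Glycolysis converts glucose to pyruvate in a fixed series of enzyme steps, and several steps are served by isozymes, which are separate genes for the same reaction. Pyruvate is either reduced to lactate by lactate dehydrogenase or, inside the mitochondria, used by pyruvate dehydrogenase, which the PDK kinases switch off. Resting naive T cells rely largely on mitochondrial respiration, and activation through the antigen receptor is known to raise glycolysis. HIF is a pair of subunits whose alpha part is marked for destruction by the EGLN prolyl hydroxylases when oxygen is present, and the genes of most glycolytic enzymes are textbook HIF targets.

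HIF is known to bind the short core ACGTG or GCGTG, so the RefSeq promoter windows (GRCm38.p6, 250 bases upstream of the listed start nearest to the annotated gene start) were searched for both strings on both strands. Windows were found for 33 of the 34 genes, and Slc2a3 has no entry. Some genes have other listed starts that were not searched, among them Eno1 with 3 starts and Hk1 with 2. Which start these cells use was not tested. The windows of 4 genes with large changes in culture (Eno1, Pgk1, Tpi1 and Hk1) and of Slc16a1, which was called neither higher nor lower there, are shown to let the presence of the motif be read beside the expression change. They lie at chr4:150236458-150236707 (+ strand), chrX:106186850-106187099 (+ strand), chr6:124814159-124814408 (- strand), chr10:62379909-62380158 (- strand) and chr3:104638414-104638663 (+ strand), and are written 5′ to 3′ on the gene's strand, with every match to either core on either strand in capitals.
Eno1: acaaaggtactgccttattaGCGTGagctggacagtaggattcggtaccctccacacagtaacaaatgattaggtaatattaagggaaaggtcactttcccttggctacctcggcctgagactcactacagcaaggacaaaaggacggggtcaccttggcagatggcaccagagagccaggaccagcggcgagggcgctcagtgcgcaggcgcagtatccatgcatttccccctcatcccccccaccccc
Pgk1: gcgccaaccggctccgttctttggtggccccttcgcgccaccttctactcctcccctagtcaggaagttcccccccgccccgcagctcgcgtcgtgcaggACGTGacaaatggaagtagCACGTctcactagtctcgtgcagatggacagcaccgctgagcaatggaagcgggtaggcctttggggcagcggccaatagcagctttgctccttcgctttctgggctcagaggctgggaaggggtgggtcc
Tpi1: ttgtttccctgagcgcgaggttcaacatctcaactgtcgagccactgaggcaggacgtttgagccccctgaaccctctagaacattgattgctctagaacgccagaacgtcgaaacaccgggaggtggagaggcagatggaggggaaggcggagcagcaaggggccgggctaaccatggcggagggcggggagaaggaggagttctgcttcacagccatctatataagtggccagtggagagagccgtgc
Hk1: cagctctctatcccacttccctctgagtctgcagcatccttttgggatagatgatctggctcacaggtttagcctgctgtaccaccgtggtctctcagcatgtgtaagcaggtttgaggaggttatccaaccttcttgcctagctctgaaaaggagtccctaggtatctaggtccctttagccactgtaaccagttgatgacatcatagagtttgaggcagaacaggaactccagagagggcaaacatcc
Slc16a1: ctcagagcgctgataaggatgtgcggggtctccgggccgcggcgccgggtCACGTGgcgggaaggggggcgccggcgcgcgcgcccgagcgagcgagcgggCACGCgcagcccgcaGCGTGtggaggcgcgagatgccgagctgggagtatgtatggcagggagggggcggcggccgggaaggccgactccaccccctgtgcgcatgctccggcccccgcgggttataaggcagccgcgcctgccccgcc
The windows of Eno1 and Pgk1, which were higher in cultured than in fresh cells, hold 1 GCGTG and 2 ACGTG matches. The windows searched for Tpi1, which was also higher, and for Hk1, which was lower, hold none. That of Slc16a1 holds 2 of each core, its ACGTG matches being the 2 strands of 1 CACGTG. Of the 33 windows, 25 (75.8%) held ACGTG or GCGTG, against 38.6% of 32851 mouse promoter windows of the same length. ACGTG alone was found in 48.5% of the members' windows and 16.6% of all windows, and GCGTG in 45.5% and 28.2%. The palindrome CACGTG, which contains ACGTG, was found in 15.2% and 6.02%. Member windows also had a higher median GC content, 59.2% against 52.4%. A core was present in 9 of the 11 genes called higher in cultured cells, in 8 of the 11 called lower and in 7 of the 9 uncalled ones with a window, so its presence did not separate the directions.

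The libraries held 13518818 to 23056660 counts. Defining markers of naive CD4 T cells were abundant in all 9 libraries, with Cd4 at 528 to 605 TPM (transcripts of a gene scaled to a fixed total per library and corrected for length) in fresh cells, and the 9 markers of the list summed to 4856 to 4945 TPM in fresh, 4058 to 4096 in cultured and 3598 to 3647 in IL-1b-treated cells. Markers of other cells were scarce and mostly lower after culture. The 7 B cell markers summed to 45.4 to 59.5, 4.25 to 4.34 and 2.99 to 6.26 TPM in fresh, cultured and IL-1b-treated cells, the 7 myeloid markers to 16.5 to 20.8, 1.61 to 3.42 and 1.55 to 3.45, the 5 dendritic markers to 1.29 to 1.54, 0.150 to 0.360 and 0.120 to 0.30, and the 5 NK cell markers, mostly Prf1, to 37.1 to 43.3, 6.77 to 8.36 and 5.0 to 6.53. The 6 neutrophil markers summed to 9.70 to 32.2, 0.120 to 0.390 and 0.00 to 2.22, and the 8 erythroid markers to 7.94 to 37.6, 0.860 to 4.09 and 0.350 to 1.84. The 2 CD8 markers went the other way, with 23.8 to 25.6, 41.2 to 50.1 and 37.9 to 42.4 TPM, the 4 platelet markers summed to at most 5.43 TPM with Ppbp at 0, and of the stromal and endothelial markers, at 140 to 181 TPM almost wholly Pecam1, Pdpn and Ccl21a were at 0. These marker levels move with the comparisons against fresh cells, and their part in the results was not tested. In such bulk samples, fewer cells of a type and less RNA per cell cannot be told apart.

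Cultured and fresh cells were compared to see what 20 h in vitro without the cytokine changed. The pathway did not move as a unit. Eno1, Ldhb, Tpi1 and Pgk1 were 1.56 to 2.55-fold higher in cultured cells, and Hk1, Pfkp, Pfkfb3 and Pdk1 were 1.49 to 1.74-fold lower. Of the 32 genes tested, 11 were called higher and 11 lower at an adjusted p under 0.05 (edgeR's quasi-likelihood test, Benjamini-Hochberg adjustment over 13043 genes), which is 68.8% called. Over all genes tested 58.2% were called, 29.4% higher and 28.9% lower, so the share among the members was near the background. The median log2 fold change was 0.07 for the members and 0.00 for all genes. Fold changes from edgeR are relative to the median gene. The TPM scale below is the difference of group means of log2(TPM + 0.5). There the members had a median of -0.17 and all tested genes one of -0.21, so a gene at an edgeR change of 0 has a lower TPM after culture. In TPM, 7 members lay wholly higher and 14 wholly lower in the 3 cultured than in the 3 fresh libraries, where 17.3% and 43.1% of all genes did (60.4% in either direction).

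**Figure D1:**
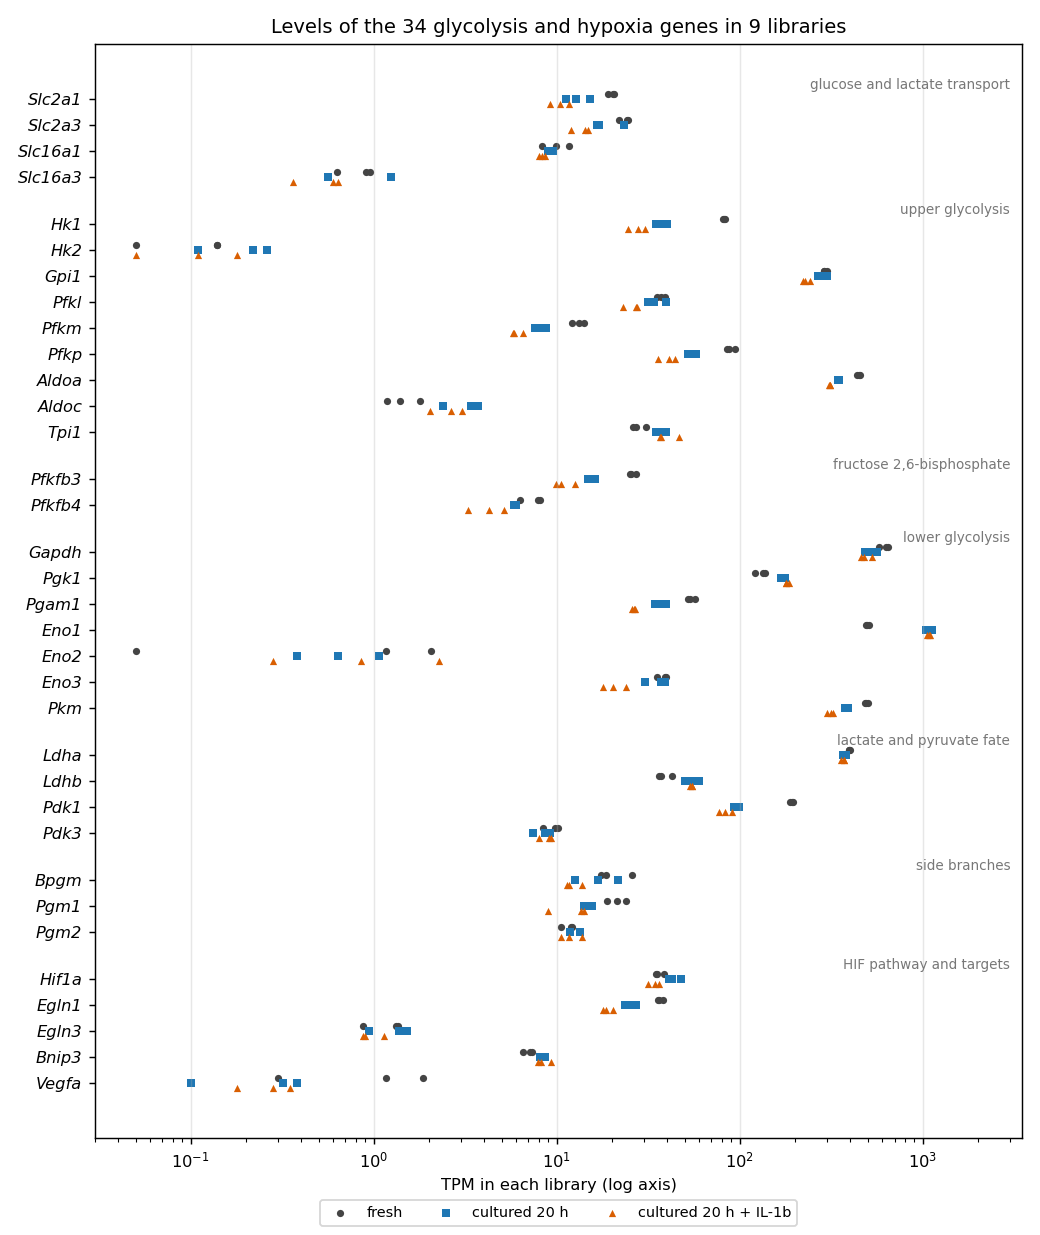
TPM of each of the 34 genes (rows, grouped by role) in each of the 9 libraries, on a log axis. Circles are fresh, squares cultured and triangles IL-1b-treated libraries. Eno1 lies at 488 to 510 TPM in fresh libraries and at 1034 to 1127 in cultured ones, while Hk1 goes from 80.8 to 83.3 down to 34.9 to 39.9.

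Among the transporters, Slc2a1 (GLUT1), the basal glucose carrier, was at 19.1, 20.4 and 20.5 TPM in fresh, 15.1, 11.2 and 12.7 in cultured, and 9.22, 11.7 and 10.4 in IL-1b-treated libraries. Every cultured library lay under every fresh one, and the change was -0.35 ± 0.09 (log2 fold change ± SE, adjusted p = 0.00306). With the GC content and length trend of the libraries removed, that call was lost (-0.06, adjusted p = 0.575). Slc2a3 (GLUT3), a high-affinity glucose carrier, had mean levels of 23.6 ± 1.37 and 19.0 ± 3.80 TPM (SD, n = 3) and was not called. The lactate carriers were low and not called either, with Slc16a1 (MCT1) at 9.93 ± 1.68 and 9.26 ± 0.277 TPM (called at 0.25, adjusted p = 0.0484, without fresh replicate 2) and Slc16a3 (MCT4) at no more than 1.24 TPM in any library.

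At the entry of the pathway, hexokinase traps glucose as glucose 6-phosphate. Hk1 (chr10:62268855-62379908) was at 80.8, 81.7 and 83.3 TPM in fresh, 38.6, 34.9 and 39.9 in cultured, and 24.4, 30.4 and 27.9 in IL-1b-treated libraries. The 3 groups did not overlap, and Hk1 had the largest decrease among the members, 1.74-fold relative to the median gene (-0.80 ± 0.05, adjusted p = 1.63e-12) and -1.11 on the TPM scale. Hk2, the inducible hexokinase, was at 0.05, 0.140 and 0.140 TPM in fresh, 0.260, 0.22 and 0.110 in cultured, and 0.05, 0.180 and 0.110 in IL-1b-treated libraries, on 18, 29 and 13 counts per group. These groups overlapped and no difference was detectable at this depth.

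Gpi1, the isomerase of the second step, was at 292 ± 4.92 TPM in fresh and 280 ± 18.1 in cultured cells. It was called higher relative to the median gene (0.20 ± 0.04, adjusted p = 5.99e-05) while its TPM ranges overlapped. Phosphofructokinase, the committed step, is encoded by Pfkl, Pfkm and Pfkp. Pfkp, the platelet type, was at 87.8, 85.5 and 94.5 TPM in fresh, 52.2, 52.7 and 57.6 in cultured, and 35.6, 41.1 and 44.4 in IL-1b-treated libraries, again with no overlap (-0.59 ± 0.05, adjusted p = 2.69e-10). Its transcript shares sequence with Pitrm1, an overlapping gene on the other strand, so some of its reads may belong there. Of the reads on both genes, 28.7% were counted for Pitrm1, with 24.9% in fresh, 30.5% in cultured and 33.8% in IL-1b-treated cells, and their part in the Pfkp values was not tested. Pfkm fell by 0.39 on the log2 scale (adjusted p = 0.00364), a call lost with the GC content and length trend removed (-0.15, adjusted p = 0.263). Pfkl was called higher by a small margin (0.15 ± 0.06, adjusted p = 0.0375), with overlapping TPM values of 37.1 ± 1.97 and 35.1 ± 4.09. The Pfkl call was lost without fresh replicate 2 (0.13), fresh replicate 3 (0.15), cultured replicate 1 (0.12) or cultured replicate 3 (0.15), at adjusted p-values of 0.0753 to 0.168.

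Pfkfb3 makes fructose 2,6-bisphosphate, the activator of phosphofructokinase. It was at 25.4, 25.1 and 27.0 TPM in fresh, 15.7, 16.2 and 14.8 in cultured, and 9.96, 10.5 and 12.6 in IL-1b-treated libraries, so that each group lay under the one before it. The change in culture was -0.58 ± 0.07 (adjusted p = 2.48e-07). In TPM, 45.0% of all tested genes lay wholly lower in IL-1b-treated than in cultured libraries. Relative to the median gene, Pfkfb3 was not called in that comparison (-0.14 ± 0.07, adjusted p = 0.164). It was called by limma in log2(TPM + 1) values (-0.47, adjusted p = 0.00601). Its relative Pfkfb4 was at 7.40 ± 0.977 and 5.91 ± 0.0917 TPM and was not called.

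Aldolase splits the 6-carbon sugar, and its main form in these cells was Aldoa, at 446 ± 7.09 TPM in fresh and 345 ± 2.91 in cultured cells (-0.13 ± 0.03, adjusted p = 0.00132). The sign of that small change turned to 0.02 with the GC content and length trend removed. Aldoc, the form known from brain, was at 1.79, 1.39 and 1.18 TPM in fresh, 3.73, 2.38 and 3.39 in cultured, and 3.03, 2.64 and 2.03 in IL-1b-treated libraries. It had the largest edgeR fold among the members (2.91-fold, 1.54 ± 0.35, adjusted p = 0.000671), at a level of 0.325 to 0.911% of the summed Aldoa and Aldoc TPM. That fold rests on 76 counts in the fresh and 182 in the cultured group. On the TPM scale its change was 0.90, under the 1.11 of Eno1. Tpi1, which interconverts the triose phosphates, was at 26.2, 27.1 and 30.9 TPM in fresh, 34.7, 39.5 and 37.0 in cultured, and 36.8, 36.9 and 46.5 in IL-1b-treated libraries. All cultured libraries lay above all fresh ones (0.65 ± 0.10, adjusted p = 5.25e-06).

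In lower glycolysis the largest change in level was at Eno1 (chr4:150236721-150248879), the enolase of most tissues. It was at 497, 510 and 488 TPM in fresh, 1077, 1034 and 1127 in cultured, and 1091, 1076 and 1057 in IL-1b-treated libraries. The fresh libraries lay far under all 6 cultured ones, and the change was 2.55-fold (1.35 ± 0.03, adjusted p = 2.88e-21), or 1.11 on the TPM scale. Eno3, the muscle enolase, was at 37.8 ± 2.25 and 35.4 ± 4.31 TPM and not called. Eno2, the neuronal form, had 28 counts in the fresh and 29 in the cultured group, too few to tell a change of the size seen at Eno1 (0.15 ± 0.69, adjusted p = 0.871). Pgk1, which makes ATP from 1,3-bisphosphoglycerate, was at 137, 121 and 134 TPM in fresh, 171, 167 and 176 in cultured, and 178, 178 and 185 in IL-1b-treated libraries, with no overlap between groups (0.64 ± 0.05, adjusted p = 3.17e-11). Gapdh, which feeds Pgk1 and is often used as a reference gene, was at 616 ± 37.2 and 522 ± 40.5 TPM and was not called (0.06 ± 0.04, adjusted p = 0.151), but was without fresh replicate 3 (0.10, adjusted p = 0.0341). Pgam1, the mutase between Pgk1 and enolase, fell by 0.33 on the log2 scale (adjusted p = 0.000416), from 54.3 ± 2.44 to 36.6 ± 2.58 TPM. Pkm, the pyruvate kinase of the last step, went from 491 ± 10.8 to 384 ± 6.49 TPM and was called lower by a small margin (-0.12 ± 0.03, adjusted p = 0.00160), a sign that turned to 0.10 with the GC content and length trend removed. Of the reads on Pkm and its matching loci, 7.29% lay on those loci.

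At the fate of pyruvate, Ldha, the lactate dehydrogenase subunit of glycolytic tissues, was at 394, 401 and 397 TPM in fresh, 381, 365 and 372 in cultured, and 373, 370 and 355 in IL-1b-treated libraries. It was called higher relative to the median gene (0.18 ± 0.03, adjusted p = 1.83e-05), whereas its TPM was lower in all 3 cultured libraries, by -0.09 on the TPM scale. Ldhb, the heart-type subunit, was at 36.3, 42.6 and 37.2 TPM in fresh, 54.1, 50.0 and 60.2 in cultured, and 53.7, 54.6 and 55.1 in IL-1b-treated libraries. It was higher on both scales (0.83 ± 0.09, adjusted p = 1.70e-08, and 0.49). Pdk1, a kinase that switches off pyruvate dehydrogenase, was at 195, 188 and 192 TPM in fresh libraries. It was at 93.4, 96.7 and 98.6 in cultured and 91.0, 76.9 and 83.3 in IL-1b-treated libraries, with no overlap. Its change in culture was -0.60 ± 0.04 (adjusted p = 1.76e-12). Pdk3, a relative of Pdk1, was at 9.44 ± 0.887 and 8.42 ± 0.879 TPM and was not called.

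On the side branches, Pgm2 was higher (0.48 ± 0.11, adjusted p = 0.000575), Pgm1, which links glycolysis to glycogen, was lower by a margin close to the threshold (-0.31 ± 0.13, adjusted p = 0.0462), and Bpgm was not called. The Pgm1 call was lost without fresh replicate 1 or 3 or any of the cultured replicates (adjusted p of 0.0521 to 0.189), and Pgm2 was not called in log2(TPM + 1) values (0.15, adjusted p = 0.330). Hif1a, the oxygen-regulated HIF subunit, was at 35.4, 38.3 and 34.8 TPM in fresh, 40.8, 47.5 and 42.4 in cultured, and 36.1, 31.3 and 34.5 in IL-1b-treated libraries, so that only the cultured group stood above the others in TPM. Its change in culture was 0.48 ± 0.05 (adjusted p = 6.87e-08). Egln1, the main prolyl hydroxylase, fell by 0.29 on the log2 scale (adjusted p = 0.000466) from 36.8 ± 1.13 to 25.6 ± 1.70 TPM, a sign that turned to 0.04 with the GC content and length trend removed. Egln3, its hypoxia-inducible relative, had at most 1.51 TPM and was not called.

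Bnip3, a HIF target of mitochondrial turnover, was at 7.16, 6.52 and 7.32 TPM in fresh, 8.56, 8.59 and 8.11 in cultured, and 8.23, 9.29 and 7.91 in IL-1b-treated libraries. The fresh group lay under both others (0.59 ± 0.16, adjusted p = 0.00335 in culture, and 0.24, adjusted p = 0.105, in log2(TPM + 1) values). Of the reads on Bnip3 and the loci that match it, 8.3% lay on those loci. Vegfa, a secreted HIF target, was at 1.86, 1.16 and 0.30 TPM in fresh, 0.320, 0.10 and 0.380 in cultured, and 0.180, 0.350 and 0.280 in IL-1b-treated libraries, on 48, 22 and 13 counts per group, too few to be tested. Those groups overlapped.

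**Figure D2:**
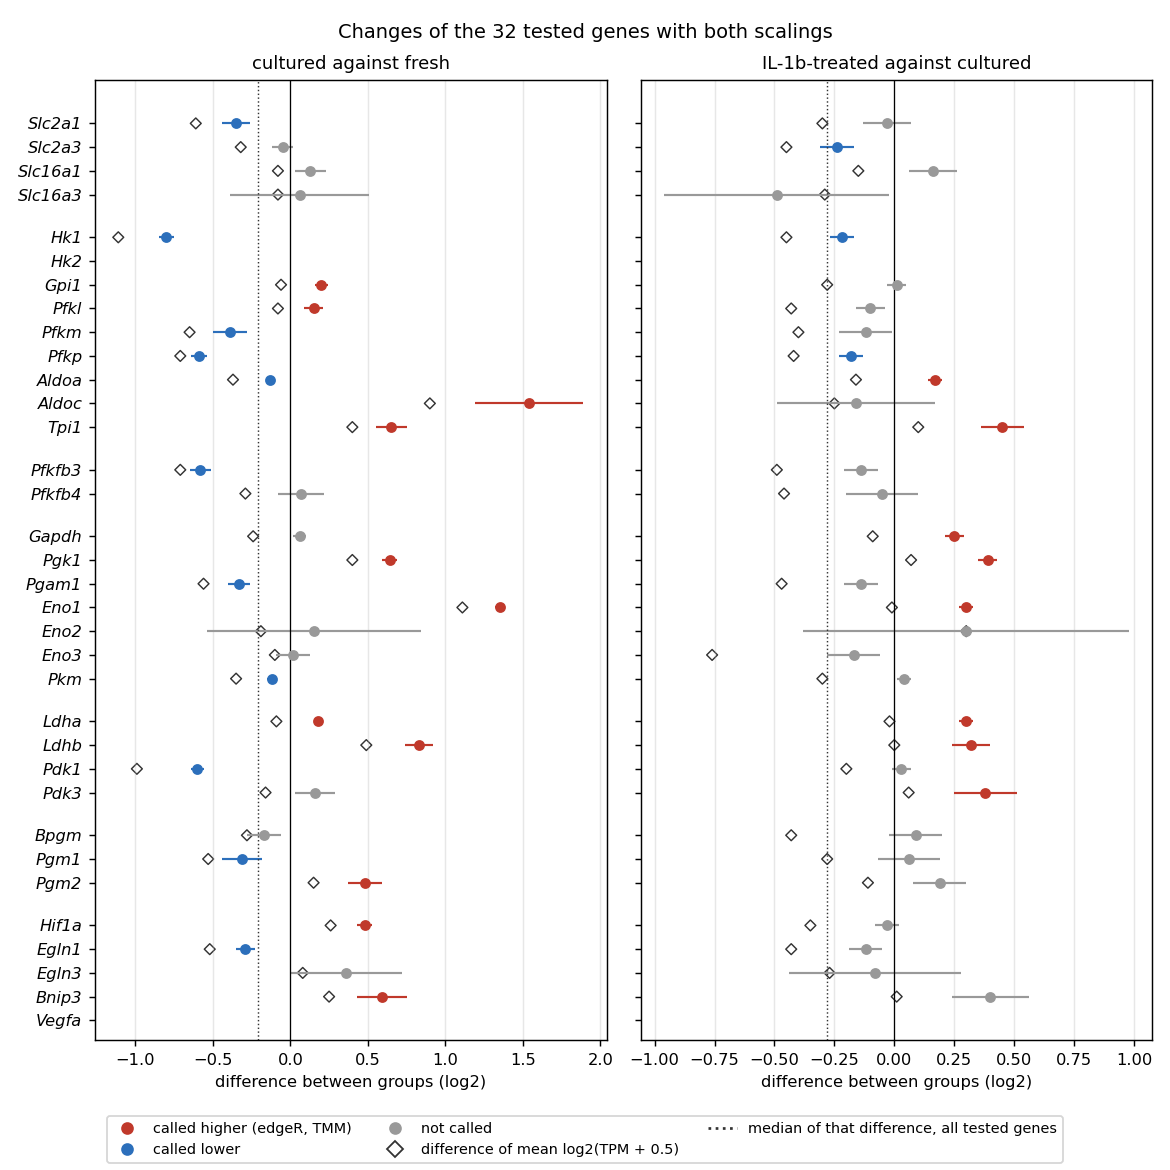
Change of each of the 32 tested genes between cultured and fresh (left) and between IL-1b-treated and cultured cells (right). Filled points with SE bars are log2 fold changes of edgeR, coloured by call; open diamonds are differences of mean log2(TPM + 0.5), and the dotted line is the median of that difference over all tested genes, -0.21 and -0.28.

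Of the 22 genes called between cultured and fresh cells, 11 kept their call and direction under each of the 25 alternative settings. These were Aldoc, Tpi1, Pgk1, Eno1, Ldhb and Hif1a, which were higher, and Hk1, Pfkp, Pfkfb3, Pgam1 and Pdk1, which were lower.

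IL-1b-treated cells were set against cultured cells to isolate the cytokine within the same 20 h. Differences were small, from -0.49 to 0.45 on the log2 scale. Relative to the median gene, 3 of 7 genes of lower glycolysis, 3 of 4 of the fate of lactate and pyruvate and 2 of 8 of upper glycolysis were called higher, and Hk1, Pfkp and Slc2a3 lower. Of the 32 genes, 8 were called higher and 3 lower, which is 34.4% called against 28.9% of all genes, with 15.6% higher and 13.3% lower. The median change was 0.02 for the members and -0.01 for all genes. On the TPM scale both medians were -0.28. In TPM only 1 member, Pgk1, lay wholly higher in IL-1b-treated libraries, and 16 lay wholly lower, where 3.76% and 45.0% of all genes did (48.8% in either direction).

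The 8 genes called higher were Aldoa, Tpi1, Gapdh, Pgk1, Eno1, Ldha, Ldhb and Pdk3. Tpi1 had the largest change (0.45 ± 0.09, adjusted p = 0.000750), and Pgk1 followed (0.39 ± 0.04, adjusted p = 4.34e-07). On the TPM scale these 2 genes differed by 0.10 and 0.07. Neither was called by limma in log2(TPM + 1) values (adjusted p = 0.480 and 0.301). Eno1 (0.30 ± 0.03, adjusted p = 9.83e-09), Ldha (0.30 ± 0.03, adjusted p = 6.85e-08) and Ldhb (0.32 ± 0.08, adjusted p = 0.00454) had almost no difference on the TPM scale, at -0.01, -0.02 and 0.00 in size. Gapdh was called higher (0.25 ± 0.04, adjusted p = 2.03e-05) at -0.09 on the TPM scale, and Aldoa (0.17 ± 0.03, adjusted p = 0.000281) lay lower in TPM in every IL-1b-treated library, at 309 ± 0.867 against 345 ± 2.91. Pdk3 was called only just (0.38 ± 0.13, adjusted p = 0.0296), and the call was lost without cultured replicate 1 (0.30), cultured replicate 2 (0.41), IL-1b replicate 1 (0.37) or IL-1b replicate 2 (0.34).

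Hk1 fell by 0.22 on the log2 scale (adjusted p = 0.00194), Pfkp by 0.18 (adjusted p = 0.00596) and Slc2a3 by 0.24 (adjusted p = 0.00939), the last from 19.0 ± 3.80 to 13.6 ± 1.54 TPM. With the GC content and length trend removed none of the 3 was called, at -0.10, -0.10 and -0.14. Slc2a3 also lost its call without cultured replicate 1 (-0.22, adjusted p = 0.0524) and Pfkp without IL-1b replicate 1 (-0.14, adjusted p = 0.0502). Slc2a1 (-0.03 ± 0.10, adjusted p = 0.841), Hif1a (-0.03 ± 0.05, adjusted p = 0.739), Pdk1 (0.03 ± 0.04, adjusted p = 0.573) and Bnip3 (0.40 ± 0.16, adjusted p = 0.0606) were not called. Of the 11 genes called in this comparison, 0 kept call and direction under every one of the 25 alternatives, because on the TPM scale 0 members were called higher and with the trend removed 0 were called lower.

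Eno3 differed in another way. Its level was 38.8, 36.9 and 30.5 TPM in cultured and 17.8, 20.3 and 23.9 in IL-1b-treated libraries, with no overlap, while its counts were not called (-0.17 ± 0.11, adjusted p = 0.281). Its effective length depends on the mix of transcripts that RSEM assigns. That length was 792 ± 105 bases in cultured and 957 ± 13.7 bases in IL-1b-treated libraries, 20.9% longer, and the difference enters the TPM. With effective length as an offset in edgeR, Eno3 was called lower (-0.46, adjusted p = 0.0425). It was also called lower by limma in log2(TPM + 1) values (-0.75, adjusted p = 0.00129). With the GC content and length trend removed it was not called (-0.24, adjusted p = 0.123).

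Between IL-1b-treated and fresh cells, which carry the effects of culture and cytokine together, 13 of 32 genes were called higher and 10 lower, or 71.9% against 65.5% of all genes (32.9% higher and 32.6% lower). In TPM 6 members lay wholly higher and 19 wholly lower, against 12.6% and 56.4% of all genes (69.0% in either direction). This comparison shares its libraries with both others and adds no independent evidence. Eno1 reached 3.13-fold (1.64 ± 0.03, adjusted p = 7.14e-23), Ldhb 2.22-fold (1.15 ± 0.08, adjusted p = 3.87e-11), Tpi1 2.14-fold (1.10 ± 0.10, adjusted p = 8.22e-10) and Pgk1 2.04-fold (1.03 ± 0.04, adjusted p = 2.87e-15), and Hk1 was 2.03-fold lower (-1.02 ± 0.05, adjusted p = 1.65e-14). Slc16a1, uncalled in the other comparisons, was called higher here (0.29 ± 0.10, adjusted p = 0.0141) although its TPM values overlapped and the call was lost without fresh replicate 3 (0.19). Bnip3 was called higher (0.98 ± 0.16, adjusted p = 1.02e-05) and Pgam1 (-0.47 ± 0.07), Pfkm (-0.51 ± 0.11) and Egln1 (-0.41 ± 0.06) lower. With the GC content and length trend removed, Pfkm was not called (-0.14, adjusted p = 0.276) and the sign of Egln1 turned (0.11, adjusted p = 0.107). In log2(TPM + 1) values Bnip3 was not called (0.24, adjusted p = 0.0816).

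The makeup of several isozyme steps differed between fresh and cultured cells when each gene's TPM was taken as a share of the members of its step. Pfkp made 64.0 ± 2.29% of phosphofructokinase TPM in fresh, 55.7 ± 3.70% in cultured and 55.8 ± 0.927% in IL-1b-treated cells, and Pfkl 26.6 ± 1.60, 36.0 ± 3.46 and 35.8 ± 1.08% (SD, n = 3 each). Ldhb made 8.87 ± 0.636, 12.8 ± 0.996 and 12.9 ± 0.442% of lactate dehydrogenase, and Pdk3 4.70 ± 0.454, 8.04 ± 0.580 and 9.55 ± 1.12% of the summed TPM of Pdk1 and Pdk3. That sum leaves out the PDH kinase gene Pdk2, at 9.84 TPM in cultured and 6.44 in IL-1b-treated cells. Pdk1 had an effective length of 3122 ± 109 bases in fresh and 3500 ± 54.7 bases in cultured cells, and that difference enters its TPM. The same holds for Pfkp (3526 ± 77.8 and 3290 ± 176 bases), Ldha (1299 ± 12.4 and 1340 ± 10.8) and Ldhb (972 ± 9.34 and 1042 ± 11.7). The Pfkp share may also carry reads of Pitrm1. The part of these in the shares was not tested. Eno3 made 7.03 ± 0.286, 3.18 ± 0.472 and 1.89 ± 0.304% of enolase. In TPM, Eno1 rose between fresh and cultured cells but not with IL-1b (1080 ± 46.2 and 1075 ± 17.0 TPM). Relative to the median gene it was called higher with IL-1b (0.30 ± 0.03). The lower Eno3 share with IL-1b carries the longer effective length of Eno3 described above. For Pfkp, Pfkl, Ldhb, Pdk3 and Eno3 the fresh libraries did not overlap the cultured ones. However, 3 against 3 libraries cannot give an exact permutation p under 0.10, and no test was made. Slc2a1 made 45.9 ± 2.15, 40.8 ± 2.28 and 43.5 ± 5.41% of the summed TPM of Slc2a1 and Slc2a3. Its fresh shares, at 43.9 to 48.2%, lay just above the cultured ones, at 39.3 to 43.5%, and the IL-1b-treated ones overlapped both. Hexokinase, taken as Hk1 and Hk2, remained almost wholly Hk1, with Hk2 at 0.134, 0.523 and 0.395% on average. Adpgk, an ADP-dependent glucokinase left out of that share, had means of 53.4 TPM in fresh, 91.1 in cultured and 63.4 in IL-1b-treated cells. Aldolase, taken as Aldoa and Aldoc, remained almost wholly Aldoa, with Aldoc at 0.325, 0.911 and 0.825%.

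**Figure D3:**
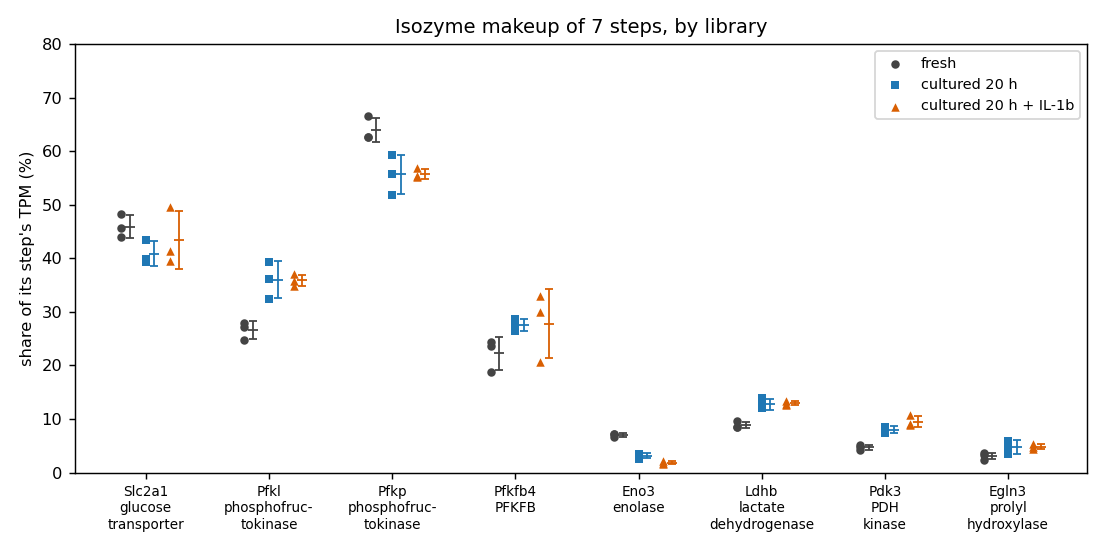
Share of each of 8 genes in the summed TPM of the members of its step, in %, for each library (points), with the mean and SD of each group of 3 beside them. Pfkp goes from 64.0% in fresh to 55.7% in cultured cells and Ldhb from 8.87 to 12.8%, with IL-1b-treated cells near cultured ones for both.

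The summed TPM of all 34 genes was 3678 ± 42.0 in fresh, 3749 ± 66.3 in cultured and 3447 ± 26.6 in IL-1b-treated cells. That near balance rested on Eno1, whose share of the sum was 13.6 ± 0.451, 28.8 ± 0.798 and 31.2 ± 0.560%. Without Eno1 the sum was 3180 ± 52.7, 2669 ± 30.8 and 2372 ± 32.2 TPM. As a share of all counts, with no correction for length, the 34 genes held 0.432 ± 0.00510, 0.485 ± 0.0102 and 0.501 ± 0.00792%, so the order of the groups differed between the units. In fresh cells Gapdh was the highest of the 34 at 616 TPM and Eno1 the next at 498, and in both cultured groups Eno1 was the highest.

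**Figure D4:**
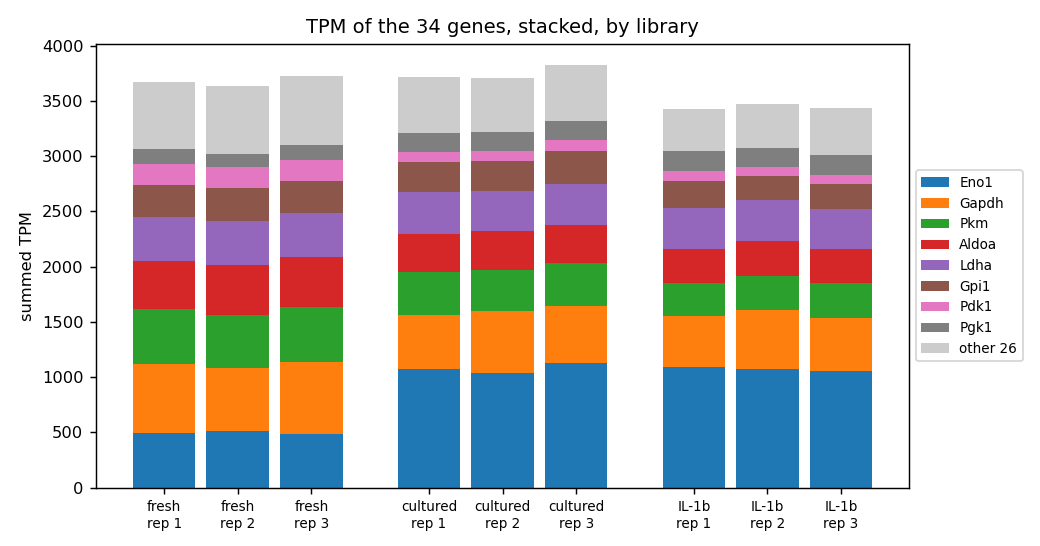
Summed TPM of the 34 genes in each library, stacked by gene for the 8 most abundant in fresh cells and summed for the other 26. The Eno1 segment grows from a mean of 498 TPM in fresh to 1080 in cultured cells while the segments of Gapdh, Pkm, Aldoa and Pdk1 shrink.

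Changes followed transcript length in all genes. Sorted by mean effective length into 5 bands of equal size, the shortest genes (13 to 1046 bases) had a median change of 0.27 and the longest (3526 to 122956 bases) of -0.12 between cultured and fresh cells, and 0.24 and -0.14 between IL-1b-treated and cultured cells. Between cultured and fresh cells the members did not follow that order throughout. From the shortest to the longest band they had medians of 0.06, 0.38, 0.11, -0.32 and 0.13 in culture, with 1, 6, 2, 1 and 1 called higher and 0, 2, 2, 6 and 1 called lower. In the second band (1046 to 1681 bases), which holds Eno1, Pgk1, Tpi1, Bnip3 and Aldoc, the 10 members had a median of 0.38 where all genes had 0.07. In the fourth band (2432 to 3525 bases), which holds Hk1, Pfkp and Pdk1, the 10 members had a median of -0.32 where all genes had -0.07. Hif1a, at 4021 bases, was higher against the trend. With the trend removed, Eno1 was at 1.51, Hk1 at -0.61, Pfkp at -0.50, Pdk1 at -0.56 and Hif1a at 0.40 between cultured and fresh cells, and each was still called. Between IL-1b-treated and cultured cells the members followed length more closely. From the shortest to the longest band their medians were 0.25, 0.30, 0.05, -0.11 and -0.03. In the same order 2, 5, 1, 0 and 0 members were called higher and 0, 0, 0, 3 and 0 lower.

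**Figure D5:**
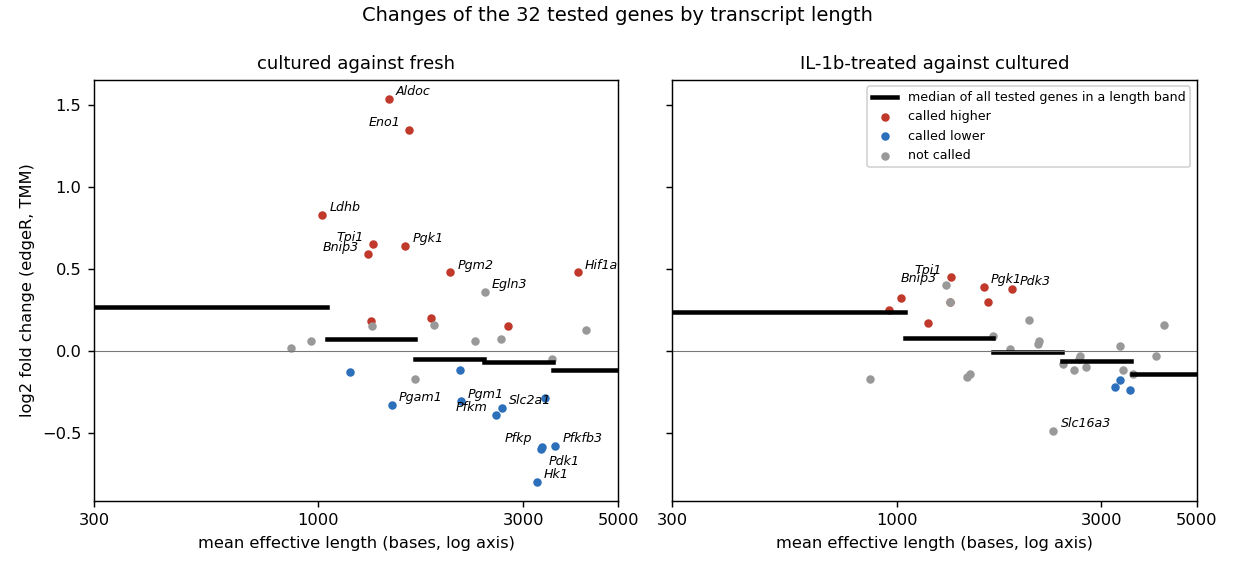
Log2 fold change of the 32 tested genes against mean effective length in bases (log axis, drawn from 300 to 5000), for both comparisons. Points are coloured by call, and black bars give the median of all tested genes in each length band, from 0.27 down to -0.12 on the left and from 0.24 to -0.14 on the right.

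Genes around the pathway were taken from 8 lists, whose shares of called genes are given beside those of all tested genes, 58.2% in culture and 28.9% with IL-1b. No list was tested as a whole. Among 21 other tested HIF target genes, 12 were called higher and 2 lower between cultured and fresh cells (66.7% called, with 29.4% of all genes higher and 28.9% lower), with a median of 0.75 against 0.00 for all genes, and 10 higher and 2 lower in log2(TPM + 1) values. P4ha1, a collagen prolyl hydroxylase, rose by 1.17 ± 0.05 (adjusted p = 4.23e-15) and Bnip3l, a mitophagy receptor, by 0.81 ± 0.04 (adjusted p = 1.06e-14), while Ddit4, an mTOR inhibitor, fell by 3.03 on the log2 scale (adjusted p = 2.00e-17), from 106 to 11.0 TPM. With IL-1b, 5 were called higher and 0 lower (23.8%, under the share of all genes), led by Mif, a secreted cytokine (0.42 ± 0.07, adjusted p = 6.91e-05), Bnip3l (0.20 ± 0.04) and Higd1a (0.51 ± 0.11), but 0 higher and 3 lower in log2(TPM + 1) values. Of 14 HIF subunits and regulators, 5 were called higher and 5 lower in culture (71.4%), among the latter the chaperone gene Hsp90ab1 (-0.99 ± 0.03, adjusted p = 3.31e-19), Os9 (-0.46 ± 0.04) and Cited2 (-0.69 ± 0.08). With IL-1b, 3 were higher and 4 lower (50.0%), with the elongin genes Elob (0.50 ± 0.07) and Eloc (0.51 ± 0.09) among the higher and Hsp90ab1 (-0.18 ± 0.03) among the lower. In log2(TPM + 1) values that list gave 2 higher and 6 lower in culture and 0 higher and 7 lower with IL-1b. Over all 13043 genes those values gave 1877 higher and 4842 lower in culture and 289 higher and 4452 lower with IL-1b.

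In the pathways that draw on glycolysis, 5 of 7 pentose phosphate genes were called higher and 1 lower in culture (85.7%, against 58.2% of all genes). G6pdx, the entry enzyme, rose by 0.84 ± 0.08 (adjusted p = 3.66e-09) and Taldo1 by 0.44 ± 0.05, and Rpia fell by 0.45 on the log2 scale. With IL-1b 3 were higher and 0 lower (42.9%, against 28.9% of all genes), namely Taldo1 (0.36 ± 0.05), Pgls (0.41 ± 0.09) and Rpe (0.34 ± 0.09). Of 11 genes of pyruvate entry into mitochondria, 7 were higher and 2 lower in culture (81.8%), with the pyruvate carrier Mpc1 at 1.08 ± 0.10 (adjusted p = 1.85e-09), the phosphatase Pdp1, which reactivates pyruvate dehydrogenase, at 1.24 ± 0.11 (adjusted p = 1.20e-09) and Pdha1 at 0.47 ± 0.04. With IL-1b 4 were higher and 1 lower (45.5%), with Dld at 0.40 ± 0.05, Pdha1 at 0.32 ± 0.04 and Mpc1 at 0.41 ± 0.09. Of 16 citric acid cycle genes, 8 were higher and 2 lower in culture (62.5%, near the share of all genes), with Idh3g at 0.80 ± 0.05, Sucla2 at 0.72 ± 0.07 and Ogdh at -0.66 ± 0.05. With IL-1b 9 were higher and 1 lower (62.5%), with Idh3g at 0.30 ± 0.05, Sdhd at 0.43 ± 0.08 and Ogdh at -0.33 ± 0.05. These directions are relative to the median gene. In log2(TPM + 1) values the citric acid cycle genes gave 3 higher and 5 lower in culture and 0 higher and 6 lower with IL-1b, the pentose phosphate genes 2 and 2 and then 0 and 2, and the genes of pyruvate entry 4 and 1 and then 0 and 1.

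Of 15 regulators of glucose uptake and glycolysis, 5 were called higher and 9 lower in culture (93.3%, against 58.2% of all genes). Mtor (-0.63 ± 0.07, adjusted p = 2.74e-08) and Stk11 (-0.47 ± 0.05) were among the lower ones. With IL-1b 3 were higher and 7 lower (66.7%, against 28.9%), with Pik3cd (-0.23 ± 0.03), Mlxip (-0.27 ± 0.05) and Myc (-0.27 ± 0.05) lower. With the GC content and length trend removed this list gave 6 higher and 4 lower in culture and 3 higher and 1 lower with IL-1b, and in log2(TPM + 1) values 2 and 10 and then 0 and 11. Txnip, which restrains glucose uptake, was at 506 ± 11.7 TPM in fresh, 399 ± 5.37 in cultured and 355 ± 4.47 in IL-1b-treated cells. It was called slightly higher relative to the median gene in both steps (0.07 ± 0.03, adjusted p = 0.0289, and 0.14 ± 0.03, adjusted p = 0.000427) and was lower on the TPM scale, by -0.34 and -0.17. Of 10 glycogen and gluconeogenesis genes 4 were higher and 2 lower in culture (near the share of all genes), with Gpd1l at 0.97 ± 0.05, Pygb at 0.46 ± 0.05 and Gsk3b at -0.41 ± 0.05. With IL-1b 0 were higher and 2 lower (20.0%), Gsk3b (-0.19 ± 0.05) and Gys1 (-0.46 ± 0.14). Of 11 other genes at or near the same steps, 4 were higher and 4 lower in culture (72.7%). Not all of these 11 are isozymes, as Tigar and Ldhd serve other reactions. The ADP-dependent glucokinase Adpgk was at 1.11 ± 0.04 (adjusted p = 1.74e-16), Tigar at -0.81 ± 0.12 and Ldhd at -2.51 ± 0.28. With IL-1b 0 were higher and 3 lower (27.3%), Adpgk (-0.20 ± 0.04), Pdk2 (-0.55 ± 0.15) and Slc2a8 (-0.72 ± 0.24). In log2(TPM + 1) values the glycogen and gluconeogenesis list gave 2 higher and 2 lower in culture and 0 and 6 with IL-1b. The other genes at or near the steps gave 2 and 5 and then 0 and 4.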

How the data were processed

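Polyadenylated RNA of 9 samples was sequenced after library preparation with a strand-marking NEBNext kit (per the labels' protocols). The submitters' processing notes name STAR, RSEM and mm10, with tool versions and the strand setting not given in the sources used here. Exons of 11 of the 34 genes (Slc2a1, Hk1, Gpi1, Pfkm, Pfkp, Aldoa, Tpi1, Gapdh, Pgm1, Hif1a and Bnip3) overlap an exon on the opposite strand in GENCODE, so their counts may include reads of the other gene. The deposited tables hold, per the file headers, RSEM expected counts, which are not normalised, TPM values made by the authors from those counts and effective lengths, and the effective lengths in bases. FPKM was not used.

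GENCODE M21 (GRCm38, the assembly of mm10) gave a symbol for 55141 of 55487 identifiers (99.38%). Expected counts were rounded and tested in R 4.3.3 with edgeR 4.0.16 (filterByExpr, TMM, quasi-likelihood test, all 9 libraries in 1 fit, adjusted p under 0.05 by Benjamini-Hochberg). The filter kept 13043 genes, and their biological coefficient of variation was 0.0665. A floor of 3 counts equals 0.130 to 0.222 CPM. Values after ± are SEs of log2 fold changes and otherwise SDs over 3 libraries. Values in every library are given for members called with an absolute log2 fold change of at least 0.5 and at least 1 TPM, and for Slc2a1, Hk2, Ldha, Hif1a and Vegfa. From each list up to 3 called genes of smallest adjusted p are named, with Txnip. Members, lists and rules were chosen with earlier results of these data known. Matching loci were found with blastn 2.17.0 (95% identity over 200 bases). Alternatives used limma 3.58.1, DESeq2 1.42.0 and, for the trend on GC content and length, mgcv 1.9.3. The scripts were tested on simulated data. Figures were drawn with matplotlib 3.10.9. The values of some genes of the pathway lists are not reported here.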

Additional observations from a re-analysis of the deposited data

How the results depend on the processing

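Of the 25 alternatives, the ones named next moved a count of members called higher or lower by over 1.5 times. Under the others every such count stayed within that range. Between IL-1b-treated and cultured cells, library size scaling gave 5 higher and 9 lower, log2(TPM + 1) and log2(TPM + 0.1) both gave 0 and 14, the effective length offset gave 1 lower and removing the GC content and length trend 0 lower. Between cultured and fresh cells both TPM fits gave 6 higher, and trend removal 5 lower. Between IL-1b-treated and fresh cells both TPM fits gave 5 higher and 19 lower, and trend removal 5 lower. Leaving out 1 library at a time gave 10 to 11 higher and 10 to 11 lower (cultured against fresh), 7 to 8 and 2 to 3 (IL-1b-treated against cultured), and 12 to 13 and 9 to 12 (IL-1b-treated against fresh).

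With the replicate block the counts were 10 higher and 10 lower, 8 and 3, and 13 and 10. Same-numbered libraries did not deviate together (r from -0.0222 to 0.019 over 9 pairs), so no pairing by number was seen. The labels do not say whether same-numbered libraries share a source, and a correlation over all genes may miss it.

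Signs turned as follows, the values of both TPM fits being equal unless 2 are given. Cultured against fresh, TPM: Gpi1 -0.06, Pfkl -0.08, Gapdh -0.24 and Ldha -0.09. Cultured against fresh, trend removed: Aldoa 0.02, Pkm 0.10 and Egln1 0.04. IL-1b-treated against cultured, TPM: Gpi1 -0.28, Aldoa -0.16, Gapdh -0.09, Eno1 -0.01, Pkm -0.30, Ldha -0.02, Ldhb -0.00 and Pdk1 -0.20, and under library size scaling Gpi1 -0.11. IL-1b-treated against fresh, TPM: Slc16a1 -0.22 and -0.24, Gpi1 -0.34, Pfkl -0.50 and -0.52, Aldoa -0.53, Pfkfb4 -0.70 and -0.81, Gapdh -0.33, Ldha -0.12, Pdk3 -0.09 and -0.10, and Hif1a -0.09, and under library size scaling Aldoa -0.13. IL-1b-treated against fresh, trend removed: Slc2a1 0.05, Pkm 0.24 and Egln1 0.11. The TPM fits differ by construction, since they do not set the median gene to 0. For the other changes the cause was not tested. Summing members with matching pseudogenes was chosen after seeing the data. Depth limits Hk2, Vegfa, Eno2, Slc16a3 and Egln3, which had 13 to 112 counts per group, and Aldoc, which had 76 in the fresh group.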
